A study of Caenorhabditis elegans with 6 samples.

Results

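The 7 genes T16G1.4, T16G1.5, T16G1.6, T16G1.7, C29F7.1, C29F7.2 and F49C12.7 of the nematode *Caenorhabditis elegans* encode proteins with a CHK kinase-like domain, and they are described here among 18865 genes with a probe on the array. They were listed by name, and the list was chosen by their ratios of CPF over control on these same arrays. The response of the 7 genes to treatment is therefore given as a description. Where one of them is said to be called in the fit over all probes, that only places it among the other probes and is no test of its response. Every probe whose name, without its isoform letter, was one of these 7 was taken, which gave 8 probes, because T16G1.7 had 2.

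CHK kinase-like proteins are grouped by sequence with kinases that phosphorylate small molecules such as choline, rather than with the kinases that phosphorylate proteins. The related ecdysteroid kinase-like proteins of insects include an enzyme of the silkworm that phosphorylates steroid hormones. The family is large in nematodes, many of its genes lie next to each other, and most carry only a sequence name. No substrate or individual role is given below for any of the 7 genes, since none is known with certainty.

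Wild type N2 nematodes were grown on agar with 0.5 mg/l of chlorpyrifos (hereafter CPF), which belongs to the organophosphorus pesticides and blocks acetylcholinesterase. Control nematodes were grown on agar with the solvent acetone alone, and both groups were fed on *Escherichia coli* OP50 and kept at 24 °C. Per the labels the animals were larvae of the L3 or L4 stage at 72 h of age, whereas a shorter time stands in the methods, and the files leave the age unsettled. Animals of 4 dishes were pooled for a sample, and RNA of a CPF sample was hybridised with RNA of a control sample on each of 6 arrays, which the series describes as biological replicates. The dyes were swapped, so that 3 arrays carried the CPF sample in Cy5 (named CPF in Cy5 below) and 3 carried it in Cy3 (CPF in Cy3). In RNA of whole animals, fewer cells of a type and less RNA per cell cannot be told apart.

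Between 35.2% and 56.1% of the gene probes were above local background in the Cy3 channel of an array and between 38.3% and 53.4% in the Cy5 channel. CPF in Cy3 replicate 1 stood apart. The SD of the log2 ratios of its tested probes was 0.90, against 0.42 to 0.47 on the other 5 arrays, and its Cy5 channel was scanned at a detector setting of 60 rather than 55. The 3 arrays of CPF in Cy3 all preceded those of CPF in Cy5 at the scanner, so dye orientation and scan series cannot be told apart. Which channel held CPF was read from the labels attached to each scan. In the log ratio table of the series, all 6 columns matched, directly or with the sign reversed, the array with their own replicate number but of the other dye orientation. If that table's labels were the right ones, every ratio of CPF over control below would change sign. "The channel labelled CPF" and "the channel labelled control" are used in that sense.

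Of the 7 kinase-like genes, 6 were called lower in CPF by these labels and 1, T16G1.5, was not called in either direction. A probe was called where the adjusted p of limma, with Benjamini-Hochberg adjustment over 11033 tested probes, was under 0.05. All 8 probes of the 7 genes passed the filter on dim probes, which asked for a spot above local background in at least 6 of the 12 channels. Over all tested probes 3.50% were called in either direction, which was 386 probes, and 2.17% were called lower in the channel labelled CPF. The count of 6 of 7 follows from how the genes were listed, and nothing is read from it. The median log2 ratio of CPF over control was -1.85 over the 7 genes, with the brighter probe of T16G1.7 standing for that gene, and 0.02 over all tested probes.

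**Figure D1:**
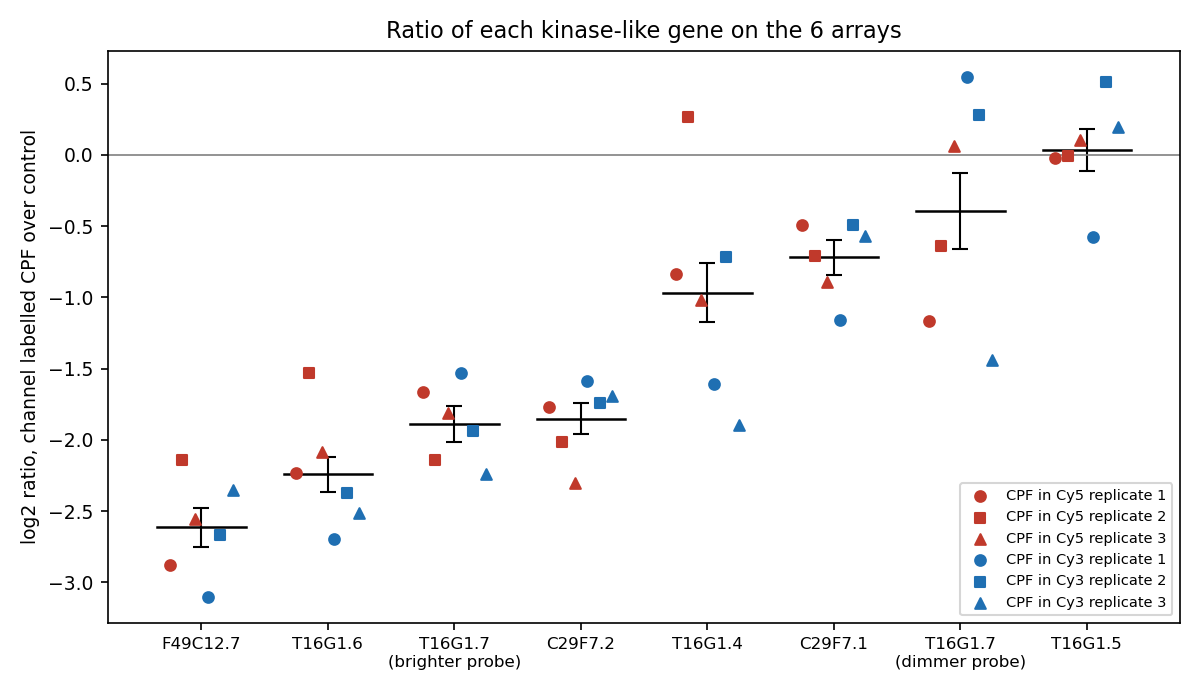
Log2 ratio of the channel labelled CPF over the channel labelled control (vertical axis) for the 8 probes of the kinase-like genes, with 1 point per array. Red points are CPF in Cy5 arrays and blue points CPF in Cy3 arrays, shapes are replicates, and black lines are means with the standard error of the limma fit. The 4 probes on the left lie below -1.5 on all 6 arrays, whereas T16G1.5 lies on both sides of 0.

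F49C12.7, which lies alone on chromosome IV, had the lowest ratio of the 7 genes. Its log2 ratios were -2.88, -2.14 and -2.55 on CPF in Cy5 replicates 1 to 3 and -3.10, -2.67 and -2.35 on CPF in Cy3 replicates 1 to 3. The normalised log2 signal was 11.83 ± 0.54 in the channels labelled control and 9.21 ± 0.49 in those labelled CPF (SD, n = 6). Every channel was above background, and the highest CPF channel (9.62) was below the lowest control channel (10.83). The mean log2 ratio was -2.62 ± 0.14 (SE of the fit, n = 6 arrays), a 6.13-fold lower signal in the channel labelled CPF.

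T16G1.6 was the lowest of the 4 neighbouring T16G1 genes of chromosome V. On CPF in Cy5 replicates 1 to 3 its log2 ratios were -2.24, -1.53 and -2.09, and on CPF in Cy3 replicates 1 to 3 they were -2.70, -2.38 and -2.52. The mean was -2.24 ± 0.12 (SE, n = 6 arrays), which is 4.73-fold lower in the channel labelled CPF. All 6 arrays were thus low, and those with CPF in Cy3 were lower on average (-2.53) than those with CPF in Cy5 (-1.95). Signal in the control channels ran from 9.56 to 11.68 on the log2 scale and in the CPF channels from 8.03 to 9.59, so the ranges met by a narrow margin. The overlap was between the control channel of CPF in Cy5 replicate 2 (9.56) and the CPF channel of CPF in Cy5 replicate 3 (9.59), and each array on its own had a lower CPF channel.

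The probes of T16G1.7 differed in signal and in mean ratio. The brighter probe was above background in all 12 channels, with log2 ratios of -1.66, -2.14 and -1.81 on CPF in Cy5 replicates 1 to 3 and of -1.53, -1.94 and -2.24 on CPF in Cy3 replicates 1 to 3. Its mean ratio was -1.89 ± 0.13 (SE, n = 6 arrays), a 3.70-fold lower signal in the channel labelled CPF, and the 2 orientations had means of -1.87 and -1.90. Control channels lay between 10.41 and 12.22 and CPF channels between 8.66 and 10.10, with no overlap.

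The dimmer probe of T16G1.7 was above background in 6 of 12 channels and had a mean log2 ratio of -0.39 ± 0.26 (SE, n = 6 arrays), which was not called. Both of its channels were above background only on CPF in Cy5 replicate 1, with a ratio of -1.16, and on CPF in Cy3 replicate 3, with a ratio of -1.44. These were the arrays on which the brighter probe had its highest control signals, 11.76 and 12.22. On CPF in Cy5 replicates 2 and 3 neither channel of the dimmer probe was above background, and its ratios were -0.64 and 0.06. On CPF in Cy3 replicates 1 and 2 only its CPF channel was above background, and its ratios were positive, at 0.55 and 0.28.

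C29F7.2 and C29F7.1 lie side by side on chromosome X. For C29F7.2 the log2 ratios were -1.77, -2.01 and -2.30 on CPF in Cy5 replicates 1 to 3 and -1.59, -1.74 and -1.69 on CPF in Cy3 replicates 1 to 3. With a mean of -1.85 ± 0.11 (SE, n = 6 arrays), or 3.61-fold lower in the channel labelled CPF, it had the smallest standard error and the smallest SD over arrays (0.26) of the 8 probes. Its control channels, from 10.93 to 12.97, did not overlap its CPF channels, from 9.24 to 10.84.

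C29F7.1 was lower by a smaller amount. Its log2 ratio was negative on all 6 arrays and ran from -1.16 to -0.49, with a mean of -0.72 ± 0.12 (SE, n = 6 arrays), or 1.65-fold. The log2 signal was 8.63 ± 0.35 in the control channels and 7.91 ± 0.43 in the CPF channels (SD, n = 6), and these ranges overlapped. The gene was close to background, with 9 of 12 channels above it, and on CPF in Cy3 replicate 1, the array with the lowest ratio, neither channel was. The call was lost in 4 of the 6 fits that left out 1 array, namely without CPF in Cy5 replicate 1, 2 or 3 or CPF in Cy3 replicate 2, at ratios between -0.78 and -0.67. It was kept without CPF in Cy3 replicate 1, at -0.61, and without CPF in Cy3 replicate 3, at -0.76.

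T16G1.4 varied most among the genes called. Its log2 ratios on CPF in Cy5 replicates 1 to 3 were -0.84, 0.27 and -1.02, and on CPF in Cy3 replicates 1 to 3 they were -1.61, -0.71 and -1.90. The mean was -0.97 ± 0.21 (SE, n = 6 arrays) with an SD over arrays of 0.76, against a median SD of 0.33 over all tested probes and of 0.41 over the called ones. The single positive ratio was on CPF in Cy5 replicate 2, where the control channel was not above background. On the 4 arrays with both channels above background the ratios were all negative, between -1.90 and -0.71. Under alternatives of processing the mean stayed negative, but the probe was called in only 8 of the 22 that tested it.

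T16G1.5, which lies between T16G1.6 and T16G1.4, had a mean log2 ratio of 0.03 ± 0.14 (SE, n = 6 arrays), and 3 of its 6 ratios were negative. They ran from -0.57 on CPF in Cy3 replicate 1 to 0.51 on CPF in Cy3 replicate 2. Only 6 of its 12 channels were above background, both channels on each of 3 arrays, and the log2 signal was 7.50 ± 0.41 in the control channels and 7.53 ± 0.28 in the CPF channels (SD, n = 6). On the other 3 arrays neither channel was above background, so the ratios there compare signals at the floor. On the arrays with both channels above it the ratios were -0.03, -0.57 and 0.20.

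**Figure D2:**
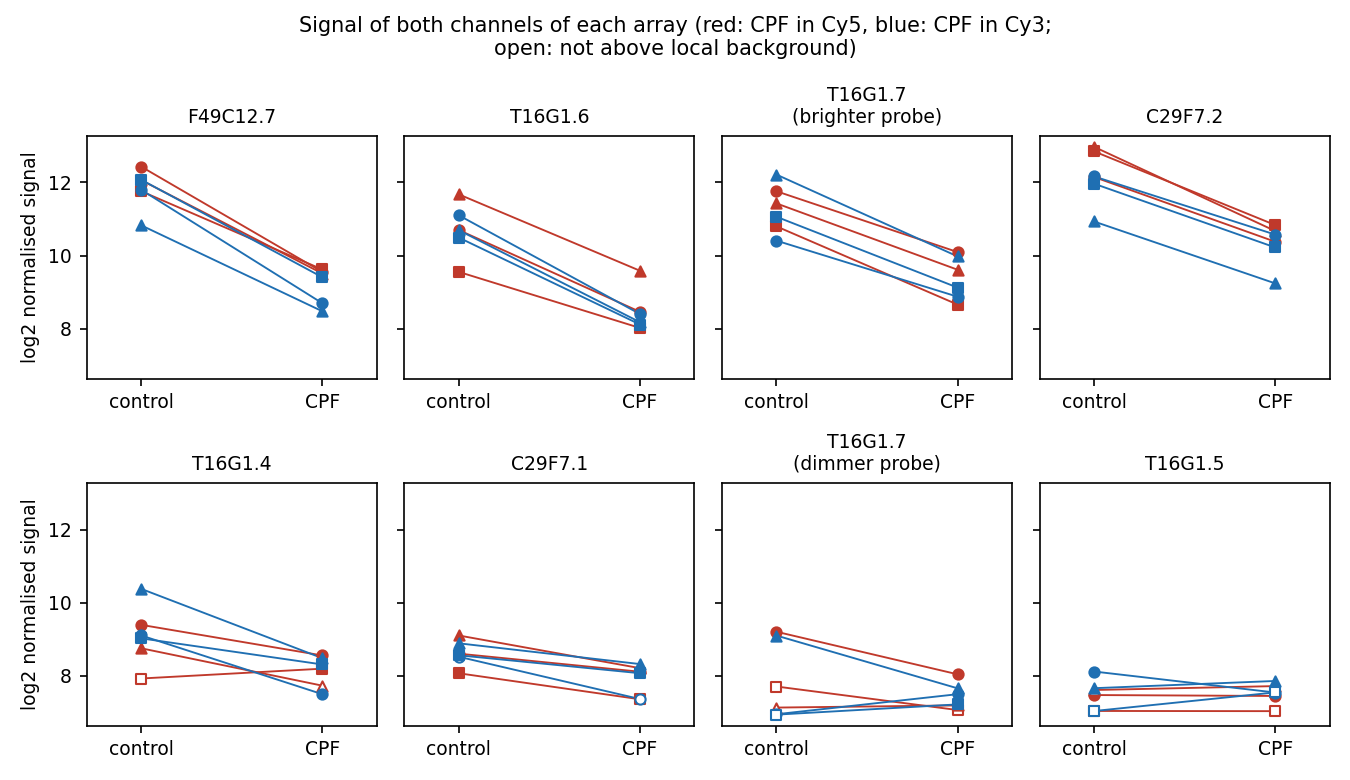
Normalised log2 signal (vertical axis) of the channel labelled control and the channel labelled CPF, with a line joining the channels of each array and 1 panel per probe. Red lines are CPF in Cy5, blue lines CPF in Cy3, shapes are replicates, and open points were not above local background. The 4 probes of the upper row were above background in all 12 channels and fall on every array, whereas probes of the lower row are near the floor. Signal depends on the probe and is not compared between panels.

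In 3 of the 7 genes, T16G1.7 by its brighter probe, C29F7.2 and F49C12.7, all channels labelled control were above all channels labelled CPF. This held for 0.290% of all tested probes, or 32 of 11033. The genes were listed by their ratios on these same arrays, so nothing is read from this count. No probe of the 7 genes had saturated pixels, so the upper end of the scanner's range did not limit them. A limit at the lower end is not excluded by this. The mean log2 ratio of T16G1.6 was -2.48 with plain background subtraction and -1.94 with no background correction, against -2.24 as reported.

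Ordered by ratio, the steps between neighbours among the 7 genes differed in size and in error. As a paired difference over the 6 arrays, T16G1.6 minus F49C12.7 was 0.37 ± 0.12 (SE) on the log2 scale, and T16G1.6 minus T16G1.7 was -0.35 ± 0.23. T16G1.7 minus C29F7.2 was -0.04 ± 0.14, less than the spread between arrays. T16G1.4 was above C29F7.2 by 0.88 ± 0.37, a larger difference but with the largest SE of these steps. C29F7.1 and T16G1.4 also lay within that spread, and T16G1.4 minus C29F7.1 was -0.25 ± 0.30. T16G1.5 was above C29F7.1 by 0.75 ± 0.09 and was above it on each of the 6 arrays. Both genes had both channels above background only on CPF in Cy5 replicate 1 and CPF in Cy3 replicate 3. There the ratios of T16G1.5 were -0.03 and 0.20, and those of C29F7.1 were -0.49 and -0.57. On the other arrays this step includes signals at the floor.

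Genes of the set did not follow each other from array to array in a common order. Over the 6 arrays, Pearson's r of the log2 ratios was 0.89 between T16G1.6 and T16G1.4 and 0.71 between T16G1.6 and F49C12.7. It was -0.92 between T16G1.7 and F49C12.7 and -0.68 between T16G1.6 and C29F7.2. These values describe 6 arrays, which both genes of a pair share with each array's hybridisation and scan settings. The mean ratio of the 7 genes on an array lay between -1.75, on CPF in Cy3 replicate 1, and -1.18, on CPF in Cy5 replicate 2.

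Within the whole array the 4 brighter probes ranked low on each array. This follows from how the genes were listed, and nothing is read from it. Ranked from the lowest log2 ratio of 11033 tested probes on each array, F49C12.7 stood between rank 5 and rank 22 and T16G1.6 between rank 11 and rank 38. C29F7.2 stood between 26 and 64, and the brighter probe of T16G1.7 between 18 and 74. C29F7.1 ranged from 227 to 978, while T16G1.4 moved from 37 to 8073 and T16G1.5 from 1774 to 9868. By the mean over arrays, F49C12.7 stood at rank 7 of all tested probes.

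**Figure D3:**
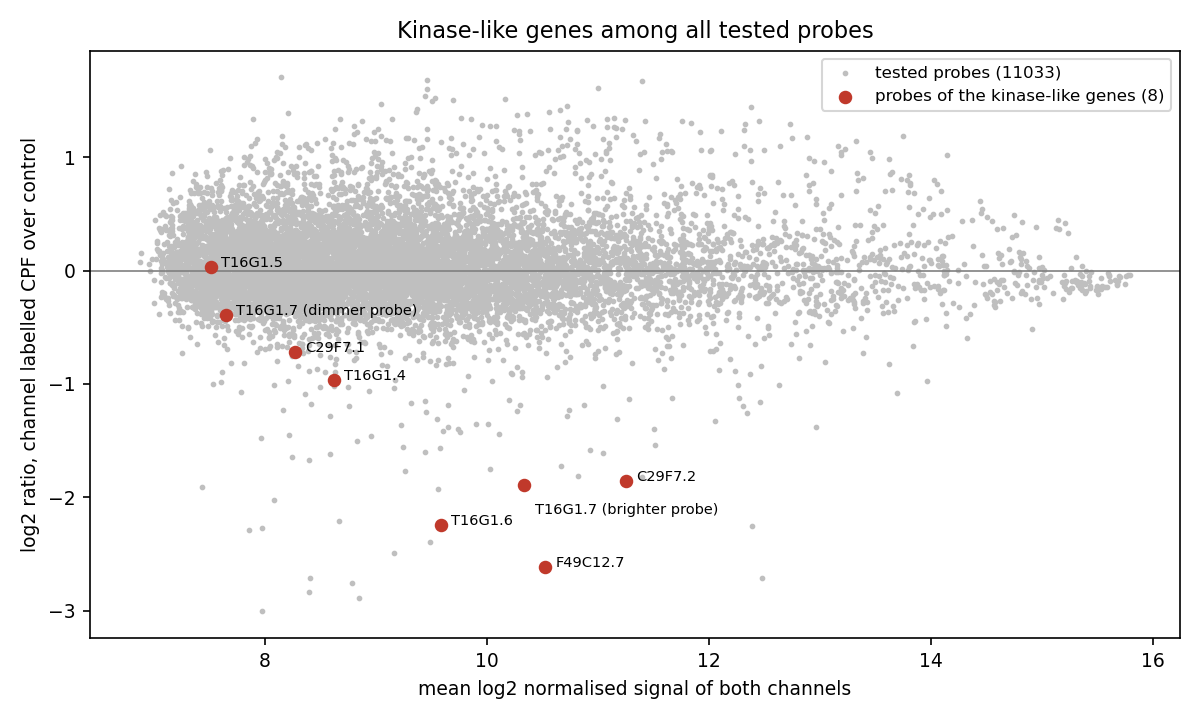
Mean log2 ratio of the channel labelled CPF over control (vertical axis) against the mean log2 signal of both channels (horizontal axis) for 11033 tested probes (grey) and the 8 probes of the kinase-like genes (red). The 4 probes with ratios below -1.8 have middle to high signal, and the 4 with ratios of -0.97 and above lie at the dim end.

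The dye contrast, Cy5 over Cy3 whatever the treatment, had no part in the choice of the genes. Of the 7 genes, 0 were called for it by limma, where 0.00906% of all tested probes (1 of 11033) were, and the adjusted p of their 8 probes ran from 0.50 to 0.99. At an unadjusted p under 0.05, 1 of the 7 passed, T16G1.6, with a dye term of 0.29 on the log2 scale. T16G1.4 had a larger dye term, 0.44, with an unadjusted p of 0.067 and an adjusted p of 0.52 by limma. With 3 arrays per orientation, dye terms of this size were not called, so the 0 calls set no limit on dye bias at that size.

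The 7 genes stood in 3 places of the genome in the annotation of assembly WBcel235, which served for gene order only. On chromosome V, T16G1.7, T16G1.6, T16G1.5 and T16G1.4 followed each other with no annotated protein-coding gene between them. The nearest genes on either side, pqn-67, T16G1.2, T16G1.3 and grl-2, were all too dim to test, with at most 3 of 12 channels above background, and the annotated span of T16G1.2 overlapped that of T16G1.7. No comparison with tested neighbours was therefore possible at this cluster.

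Around C29F7.1 and C29F7.2 on chromosome X, both tested neighbours had ratios near 0. F02C12.1 had a log2 ratio of 0.05 ± 0.11 (SE, n = 6 arrays, adjusted p = 0.77 by limma) and C29F7.3, the gene after C29F7.2, had -0.04 ± 0.13 (adjusted p = 0.86 by limma). The cytochrome P450 gene cyp-13B1 and the forkhead gene fkh-3 were above background in no channel. F49C12.7 was followed on chromosome IV by F49C12.9, at 0.12 ± 0.12 (adjusted p = 0.52), and by rpn-7, a subunit of the regulatory particle of the proteasome, at 0.04 ± 0.10 (adjusted p = 0.80), both by limma. On its other side, gtnt-30 and F49C12.6 were too dim to test, and the span of F49C12.6 overlapped that of F49C12.7.

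**Figure D4:**
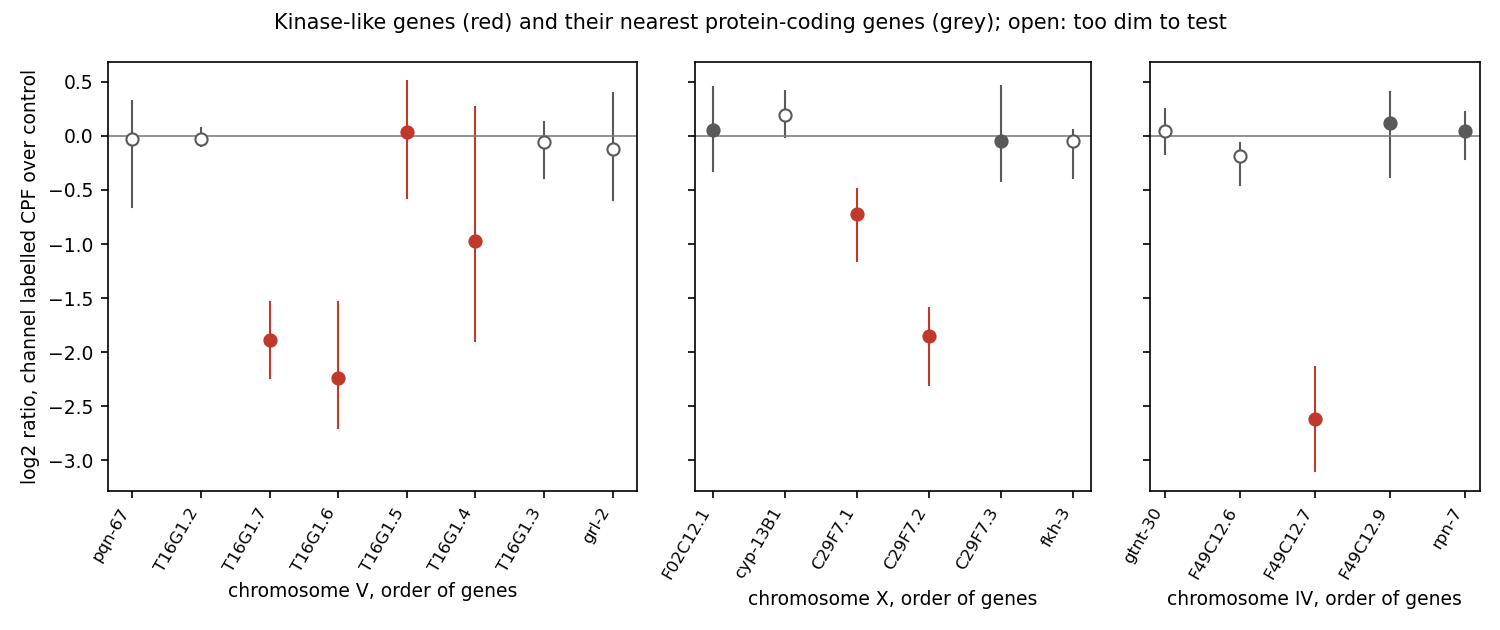
Mean log2 ratio of the channel labelled CPF over control (vertical axis) for the kinase-like genes (red) and the nearest protein-coding genes on either side (grey), in gene order along chromosomes V, X and IV (horizontal axis, not to scale). Bars span the lowest to the highest of the 6 arrays, and open points were too dim to test. The 4 tested neighbours lie between -0.04 and 0.12.

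Other genes of *C. elegans* held to be of the same kinase-like kind were taken from a list of 19 names. The list was drawn from general knowledge and was not checked by sequence, and the place of T16G1.9 on it is unsure. It was drawn up with earlier results of these data known. The calls, shares and adjusted p values given for it are therefore a description and no independent test. Probes were on the array for 16 of them, and 7 passed the filter. Of these 7, limma called 1, F48G7.12, which was lower in the channel labelled CPF, 6 of the 7 had a negative mean ratio, and their median was -0.28. Over all tested probes 3.50% were called, 2.17% were called lower, 46.7% had a negative mean ratio and the median was 0.02.

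F48G7.12, on chromosome V, had log2 ratios of -1.49, -1.15 and -1.13 on CPF in Cy5 replicates 1 to 3 and of -1.85, -1.70 and -1.72 on CPF in Cy3 replicates 1 to 3. All control channels and 4 of the 6 CPF channels of this probe were above background, and the ratio was lower on each array with CPF in Cy3 than on any with CPF in Cy5. Its mean was -1.50 ± 0.10 (SE, n = 6 arrays, adjusted p = 0.00027 by limma). The other 2 probes of F48G7.12 were above background in no channel, so the call rests on 1 probe.

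The next genes of that list were not called. T16G1.9, which carries the same clone name as the 4 genes of chromosome V, was above background in all channels with a log2 ratio of -0.34 ± 0.16 (adjusted p = 0.20 by limma, lower on 4 of 6 arrays). F59B1.8 had a ratio of -0.30 ± 0.11 (adjusted p = 0.13 by limma, lower on 5 of 6 arrays), and D1044.1 one of -0.28 ± 0.14 (adjusted p = 0.23 by limma, lower on 5 of 6 arrays). The other 3 genes tested lay between -0.17 and 0.16. Of the 9 that failed the filter, 8 were above background in no channel.

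By the root mean square difference over the 6 arrays from the mean log2 ratio of the 7 genes, the nearest of the other tested probes was that of Y37H2A.11, at 0.15 on the log2 scale, with a mean ratio of -1.38 ± 0.10 and Pearson's r of 0.81 to that mean. It was followed by dhs-2, a gene named for the short-chain dehydrogenases, at 0.22, with a mean ratio of -1.60 ± 0.10. F48G7.12 was the third, at 0.23. asah-1, named for acid ceramidase, which splits ceramide into sphingosine and a fatty acid, had 0.23 as well, with a mean ratio of -1.54 ± 0.14, and W01A11.1 had 0.27 with -1.28 ± 0.11. These genes were picked for this likeness, and their ratios are a description.

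Markers of 7 tissues were followed to describe the animals. Of the 10 intestinal genes listed, such as the transcription factor elt-2 and the esterase ges-1, 9 were tested, 0 were called, and the median log2 ratio was -0.26, with array medians from -0.51 to 0.01. Their summed normalised signal ran from 105000 to 126000 in the control channels and from 81200 to 112000 in the CPF channels, and none of the 9 was at background. Of 8 markers of oocytes and embryos, 7 were tested and 1, oma-2, was called higher in the channel labelled CPF (0.57, adjusted p = 0.047 by limma). Over all probes, 147 of 11033 were called higher. The median of the oocyte and embryo markers was 0.21, and their array medians, from 0.22 to 0.50, were all positive. The medians of the sperm, muscle, neuron, pharynx and epidermis markers were 0.35, 0.05, -0.28, 0.12 and 0.10, with 0 called by limma. In each of these lists the array medians lay on both sides of 0. The part of tissue make-up in the ratios of the kinase-like genes was not tested.

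**Figure D5:**
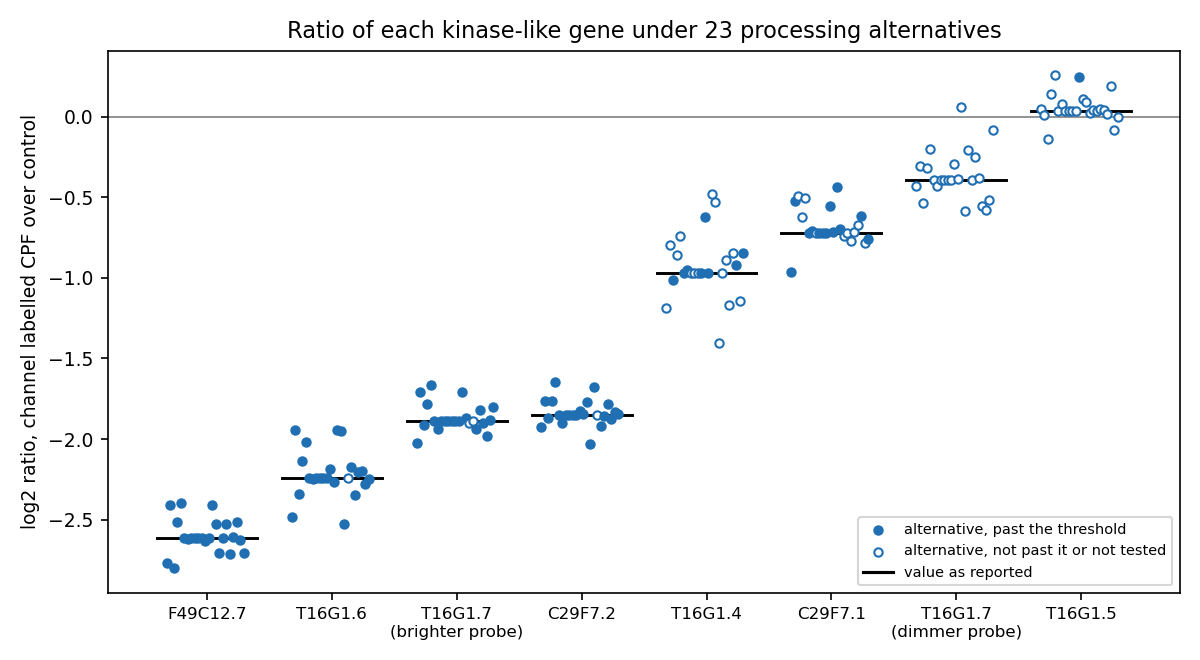
Log2 ratio of the channel labelled CPF over control (vertical axis) of the 8 probes of the kinase-like genes under 23 alternatives of processing, each a point, filled where the probe was past the threshold of its test. Black lines are the values reported. F49C12.7, T16G1.6, T16G1.7 by its brighter probe and C29F7.2 stay below -1.6 under all 23, while points of T16G1.4 and C29F7.1 are both filled and open.

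Across the 23 alternatives the log2 ratio ran from -2.80 to -2.39 for F49C12.7 and from -2.53 to -1.94 for T16G1.6. For the brighter probe of T16G1.7 it ran from -2.03 to -1.67, and for C29F7.2 from -2.03 to -1.65. The genes were listed by this ratio on these arrays, so these ranges describe the effect of the processing and are no independent support. T16G1.4 was called in 8 of the 22 alternatives that tested it, and C29F7.1 in 13 of 22. Both lost the call without CPF in Cy5 replicate 1, 2 or 3, or without CPF in Cy3 replicate 2. In these fits T16G1.4 had ratios between -1.17 and -0.85. Over all probes the same 4 omissions left between 58 and 94 calls, against 386 with all arrays, while the omission of CPF in Cy3 replicate 1 gave 806 and that of CPF in Cy3 replicate 3 gave 1323.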

How the data were processed

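Scanner files of 6 two-colour arrays were used. The deposited spot intensity (mean, median and local background in Cy3 and Cy5) was, per the file headers, quantified by the authors in ScanArray Express and neither background-subtracted nor normalised. The percent of saturated pixels per spot was deposited with it. A deposited table holds log2 ratios that the authors computed with limma (version 3.2.3 in the submitters' processing notes), using loess and Aquantile normalisation and removing outlying values, according to the methods. Its columns matched the raw ratios of same-numbered arrays of the other orientation. Correlations across 2345 bright probes were 0.88 to 1.00 for the columns labelled CPF in Cy5. For the columns labelled CPF in Cy3 they were negative, from -1.00 to -0.98. With the array of their own label the columns correlated at -0.41 to 0.42. Column medians lay within 0.0043 of 0. It served as an alternative, with columns placed by that match, and its direction stays unsettled. No genome build is given in the sources used here.

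Intensity was corrected by normexp (offset 50), and ratios went through loess (within arrays) and Aquantile (between arrays) in limma 3.58.1 (R 4.3.3). Control or blank spots (742 of 23232) were left out. Gene probes (22490) were tested where the median exceeded local background by 2 background SDs in 6 of 12 channels (49.1%, or 11033 probes of 9947 genes), and 0 of 618 empty spots did. Signal over background sets the precision of a probe, and the number of arrays that of every mean. The log2 ratio was fitted with a CPF and a dye term (lmFit, eBayes, two-sided, Benjamini-Hochberg). The study states a linear model on the toxicant only, kept as an alternative. The brightest probe stood for a gene. Names came from the files (21382 probes) or the platform's gene numbers (31), and 1077 kept the name in the file.

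The 7 genes, the list of possible kin, the markers, tests and alternatives were chosen with earlier results of these data known. Named genes were the 7, their 2 nearest protein-coding genes on each side, kin called or among the 4 largest ratios, and the 5 probes nearest in ratio. Kin were taken by name, since protein sequences were not used here, and promoter motifs were not searched. The fit was tested on simulated data. Plots were made in Python 3.11.15 (matplotlib 3.10.9).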

Additional observations from a re-analysis of the deposited data

Results flagged for a closer look

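The normalised log2 signal of T16G1.6 in the channel labelled CPF was 9.59 on CPF in Cy5 replicate 3, against 8.03 to 8.46 on the other 5 arrays. The gap to the nearest of these was 0.72 of the whole range, above the limit of Dixon's test for 6 values. The control channel of that spot, at 11.68, was also the highest of its group, and the log2 ratio of the array, -2.09, lay within the range of the others. It was the only one of 24 sets of values examined (levels and ratios of 8 probes) to be set apart in this way, where chance sets apart about 1 in 20.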

How the results depend on the processing

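Under 23 alternatives, no ratio of the 6 called probes of the 7 genes changed sign. The dimmer T16G1.7 probe, not called, went from -0.39 to 0.06 in the deposited table, and T16G1.5, near 0, ran from -0.14 to 0.26. The total of 386 calls (239 lower, 147 higher) became 233 with plain background subtraction, 243 with none, 54 with median centring within arrays (50 lower, 4 higher), 286 without normalisation within arrays (46 lower, 240 higher), 1281 with scaling between arrays (521 lower, 760 higher), 256 with all 12 channels above background, 205 without the dye term, 5005 with array weights, 1591 in a robust fit, 762 in the deposited table (380 lower, 382 higher), 629 on CPF in Cy5 arrays alone, 20 on CPF in Cy3 arrays alone and 8 in the study's linear model on single channels. Calls among the 7 genes fell to 3 on CPF in Cy3 arrays alone and to 1, F49C12.7, in the study's model. The counts for that model use the adjusted threshold of 0.05 applied throughout and keep outlying values, unlike the study, which set its threshold by permutation. Their median of -1.85 became -1.71 without background correction and also in the deposited table, -1.65 without normalisation within arrays, which moved the median of all probes from 0.02 to 0.24, and -1.68 on CPF in Cy3 arrays alone. The mean of both T16G1.7 probes was -1.14. In the deposited table, C29F7.1 had -0.44 and T16G1.4 had -0.48, which was not called. Calls among possible kin became 0 with all 12 channels above background and in the study's model, 5 with array weights and 2 in a robust fit, and array weights called 1 of the 7 for the dye term. Leaving out each array in turn gave 58 to 1323 calls, 4 to 6 of the 7 genes, medians of -1.92 to -1.78, 1 call among kin each time and 0 for dye. T16G1.5 was called once, with array weights, at 0.25. The cause of these changes was not tested.

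Both orientations used the same replicate numbers, and deviations of same-numbered arrays correlated at 0.10, -0.08 and 0.27. The arrays were therefore not treated as paired, though such correlations cannot show whether same-numbered arrays shared RNA or cultures. With the replicate number as a block, 470 probes were called (242 lower, 228 higher), as were 6 of the 7 genes. A stricter sequence limit for kin was not run. Near background, as for T16G1.4, T16G1.5, C29F7.1 and the dimmer T16G1.7 probe, the offset of 50 pulls ratios towards 0 by construction.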
